A study of Mus musculus with 8 samples.

Results

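Mouse pluripotent cells in culture lie on a path from a naive state, which resembles the inner cell mass, through a formative state to a primed state, which resembles the epiblast after implantation. Along that path, signalling by fibroblast growth factors through ERK and the transcription factor Otx2 reshape which enhancers are used, and a set of epiblast genes comes on before any germ layer is chosen. The genes described here are 7 genes known from that set: Fgf5, which encodes a secreted growth factor, and Otx2, Pou3f1, Zic2, Sox3, Foxd3 and Sox4, which encode transcription factors. They were taken by gene name and make up 7 of the 22878 gene entries in the deposited files. All 7 exceeded 1 FPKM throughout the 8 libraries, so that none was lost to a filter on low values.

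RNA-seq of poly(A) RNA was available for 5 mouse lines. R1 is an embryonic stem cell (ESC) line derived from an embryo, and the other 4 are induced pluripotent stem cell (iPSC) lines made with a secondary system, in which somatic cells of mice grown entirely from iPSCs already carry inducible reprogramming factors. The starting cells were hematopoietic for 16-6 and adipocyte progenitors for 32, which are both mesodermal, while S8 was made from ectodermal cells of the epidermis and T2 from endodermal cells lining the stomach. R1, 16-6 and 32 had 2 libraries each, while S8 and T2 had 1 library each, which gave 8 libraries. No treatment or time point separated the groups, each line was maintained on mitomycin-treated mouse embryonic fibroblasts with LIF, and each iPSC line stands for its tissue of origin alone. The study's methods call the replicate libraries biological replicates, without saying what separated them, and the p-values measure the spread between these libraries.

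Values are given as FPKM, in which the fragments of a gene are divided by transcript length and by sequencing depth, after division of every deposited value by the same constant. The number of fragments behind a value was worked out from its deposited confidence limits and came to between 15.5 and 16.7 per library in units of 1000000. These are not read numbers, since the study's read table lists far more uniquely mapped reads, at a lower mapped share, for S8 and T2 than for the other 6 libraries, and how the nearly equal implied fragments relate to those reads was not tested. The 7 genes rested on line means of between 73.0 fragments (Sox3 in R1) and 4133 fragments (Zic2 in S8). The 8 markers of pluripotent cells chosen for the comparison, among them Pou5f1, Sox2 and Nanog, were at 80.8 FPKM or more in all 8 libraries. Markers of other cells differed between lines. The 12 fibroblast markers summed to 959 and 986 FPKM in R1, 2587 and 2571 in 16-6, 142 and 143 in 32, 539 in S8 and 753 in T2, and none of them was at 0 in any library. Since these are bulk samples, a lower value may mean fewer cells that express a gene or less RNA per cell, and these cannot be told apart.

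S8 and T2 stood apart from the other 6 libraries in how fragments were turned into FPKM. For the median of 11454 gene entries with at least 20 fragments in every library, 1 fragment was worth 1.01 times as much FPKM in S8 as in R1 and 0.951 times as much in T2. Among transcripts with a GC content of 60% or more, that ratio was 1.25 in S8 and 1.09 in T2, and among those below 45% it was 0.842 and 0.839. In 16-6 and 32 the same classes ran only from 0.977 to 1.06 and from 1.09 to 1.11. Several of the epiblast genes have GC-rich transcripts. Sox3, at 66.6%, Foxd3, at 64.2%, and Pou3f1, at 61.5%, had a GC content above that of 97.4% or more of all genes, Zic2 was at 57.2% and Sox4 at 51.1%, whereas Otx2 was at 47.7% and Fgf5 at 47.0%. In S8, 1 fragment of Sox3 carried 1.85 times the FPKM it carried in R1, and the ratio was 1.70 for both Pou3f1 and Sox4, 1.60 for Foxd3 and 1.45 for Zic2. In T2 these 5 genes had ratios of 1.28 to 1.44. For Fgf5 and Otx2 the ratios were 0.887 and 1.00 in S8 and 0.852 and 0.946 in T2. The results of the 7 genes that rest on S8 or T2 are therefore also given on implied fragments, with the same FPKM per fragment for a gene in all libraries, a scale chosen after the data had been seen, and where another gene described as called against R1 lost its call on that scale, this is stated. Confidence limits can hold more than counting error, and the scale is then unreliable. Examples are Nanog and Dnmt3a, whose standard errors in S8 against R1 were 1.08 and 0.43 on that scale. A large shift between the scales could also come with a small standard error. For Sall4 in T2 against R1 the difference was 0.18 on FPKM and -2.63 on implied fragments, where its standard error was 0.14. What made these ratios differ was not tested, and a difference in library preparation cannot be told apart from a difference between lines, because the sources name no R1 library prepared together with S8 and T2.

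**Figure D1:**
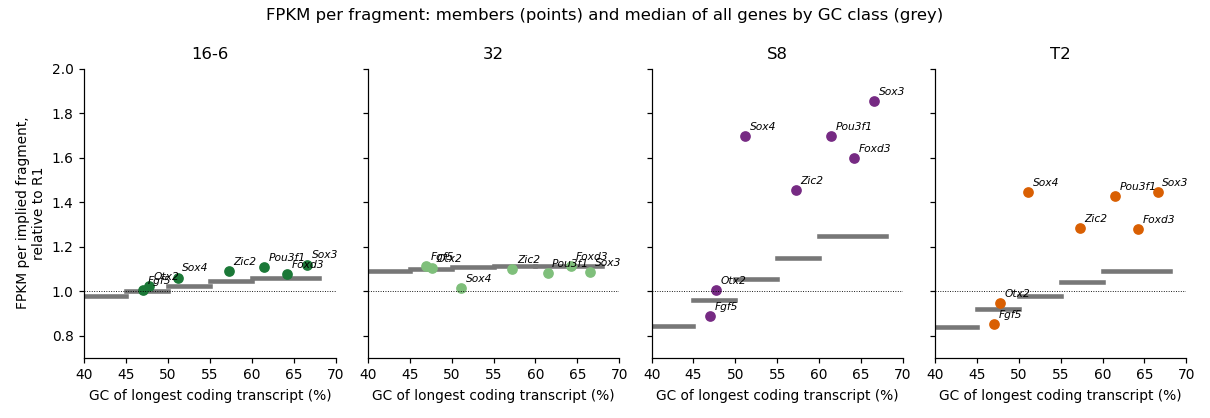
FPKM carried by 1 implied fragment, relative to the mean of the R1 libraries (vertical axis, a ratio), against the GC content of the longest coding transcript (horizontal axis, percent), in 16-6, 32, S8 and T2. Points are the 7 epiblast genes, and grey lines are the medians of all gene entries with at least 20 fragments in each GC class, the outermost classes being drawn only as far as the axis needs. In S8 Sox3, Pou3f1, Sox4, Foxd3 and Zic2 lie between 1.45 and 1.85, above the median of their class, while all 7 genes lie between 1.00 and 1.12 in 16-6.

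Of the 7 genes, 4 have an entry in the RefSeq promoter table (Fgf5, Otx2, Foxd3 and Sox4). The windows of Fgf5 and Foxd3 are shown because the FPKM of these genes differed in opposite directions between S8 and T2. Each is the 250 bases before the annotated start in GRCm38.p6, a different build from that of the files, at chr5:98253934-98254183 on the plus strand for Fgf5 and chr4:99656049-99656298 on the plus strand for Foxd3, with motif matches in capitals.
Fgf5: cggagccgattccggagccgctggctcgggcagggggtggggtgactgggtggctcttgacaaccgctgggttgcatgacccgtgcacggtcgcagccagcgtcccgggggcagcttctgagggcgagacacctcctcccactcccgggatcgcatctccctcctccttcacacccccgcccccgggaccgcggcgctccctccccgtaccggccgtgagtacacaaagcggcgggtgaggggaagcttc
Foxd3: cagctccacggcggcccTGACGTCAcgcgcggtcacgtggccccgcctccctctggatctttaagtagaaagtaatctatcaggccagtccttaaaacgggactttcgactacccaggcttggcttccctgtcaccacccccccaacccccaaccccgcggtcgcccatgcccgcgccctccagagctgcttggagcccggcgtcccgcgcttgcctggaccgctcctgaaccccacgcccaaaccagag
The windows were searched on both strands for the POU octamer ATGCAAAT, the OTX site TAATCC, the SOX core AACAAT, the forkhead site TGTTTAC, the cAMP response element TGACGTCA and the TATA box TATAAA, none of which overlapped another match here. Foxd3 held the cAMP response element, 233 bases before the start, which 1.55% of the 32851 windows in the table held. Fgf5 held none of the 6, which says only that these letters are absent from this window. Both windows are rich in CpG, with 24 CpG in Fgf5 and 21 in Foxd3 against a median of 6 over all windows. A match is a description of the sequence and was not tied to the expression values.

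All 7 genes differed among the 5 lines in an F test with limma on log2(FPKM + 1), at a Benjamini-Hochberg adjusted p over 13693 genes below 0.05 and with line means at least 1 apart on the log2 scale. Over all genes tested, 34.5% passed the same rule. Pou3f1 had the smallest adjusted p, 4.37e-05, and the widest span of line means, 3.81 on the log2 scale. Sox4 had the largest adjusted p, 0.000480, and the narrowest span, 1.48. On implied fragments 6 of the 7 passed, beside 31.9% of all genes, and Sox4 did not, with a span of 0.89. Without S8 and T2, 3 of the 7 passed among R1, 16-6 and 32 (Fgf5, Otx2 and Sox4), beside 16.7% of 13497 genes tested. Pou3f1, Zic2, Sox3 and Foxd3 thus passed only with S8 and T2 in the fit, and their spans over R1, 16-6 and 32 were 0.96, 0.35, 0.99 and 0.63.

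**Figure D2:**
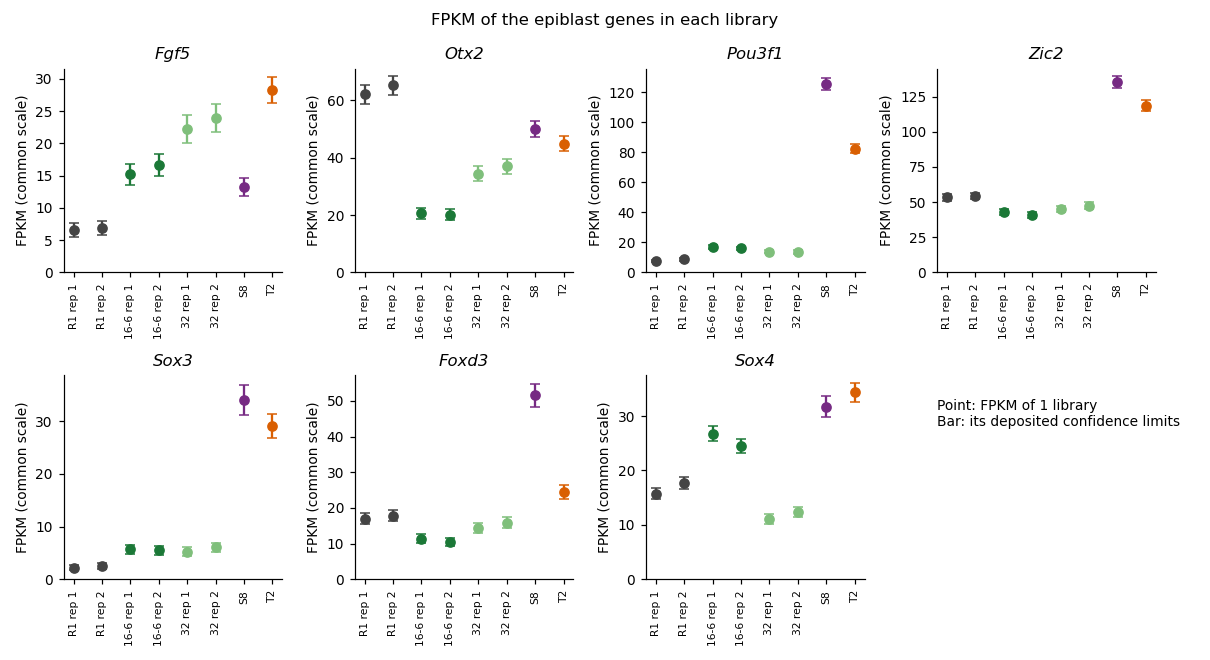
FPKM of each of the 7 epiblast genes in each of the 8 libraries (vertical axis, FPKM on the common scale, starting at 0 in each panel). Points are single libraries and bars their deposited confidence limits. Pou3f1, Zic2 and Sox3 are far higher in S8 and T2 than in the other 6 libraries, Otx2 is highest in the R1 libraries, at 62.1 and 65.3, and Fgf5 is lowest there, at 6.56 and 6.94.

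Fgf5, the growth factor long used to mark the epiblast after implantation, lies at chr5:98683203-98706049 in mm9 on the plus strand and has 3 exons. Its FPKM was 6.56 and 6.94 in R1, 15.2 and 16.6 in 16-6, 22.2 and 24.0 in 32, 13.2 in S8 and 28.3 in T2. Every iPSC library was above both R1 libraries. The FPKM values of no 2 lines overlapped, although the deposited confidence limits of 16-6 and S8 did. The mean was 6.75 ± 0.269 (SD, n = 2) in R1, so that the line means ran up to 4.19-fold of R1 in T2. Against R1, Fgf5 was higher by 1.13 ± 0.07 (log2 difference ± SE) in 16-6, with a limma adjusted p of 0.000308. In 32 it was higher by 1.64 ± 0.07, with a limma adjusted p of 7.85e-05, and in T2 by 1.92 ± 0.08, with a limma adjusted p of 0.000189. In S8 the difference was 0.88 ± 0.08, short of the minimum of 1 on FPKM, and 1.06 on implied fragments, which is past it. On FPKM Fgf5 was the only one of the 7 genes to be called against R1 in 3 iPSC lines. Sox3 was also called against R1 in 32, S8 and T2 on implied fragments. The order was T2, 32, 16-6, S8 and R1, and the closest neighbours were 16-6 and S8, at 0.25 ± 0.08 with a limma adjusted p of 0.0446, and 32 and T2, at -0.28 ± 0.08 for 32 minus T2 with a limma adjusted p of 0.0379. Without a filter on low values these limma adjusted p were 0.0647 and 0.0578. On implied fragments 16-6 and S8 were 0.08 apart with a limma adjusted p of 0.516, so this pair was not firmly separated. The pair of 32 and T2 lay further apart on that scale, at -0.45 ± 0.09 for 32 minus T2, and its outcome on FPKM depended on the filter.

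Otx2 encodes a homeodomain factor that drives cells out of the naive state and later patterns the forebrain. It lies at chr14:49277859-49282547 on the minus strand, and the annotation gives it 3 to 5 exons depending on the transcript. Its FPKM was 62.1 and 65.3 in R1, 20.7 and 20.1 in 16-6, 34.5 and 37.1 in 32, 50.1 in S8 and 44.99 in T2. Here R1 was the highest line and all 6 iPSC libraries lay below it, the reverse of the order of Fgf5 at that end. The fall was called in 16-6, by 1.60 ± 0.05 on the log2 scale, with a limma adjusted p of 0.000107. In 32 the difference from R1 was -0.82 ± 0.05, in T2 it was -0.49 ± 0.06 and in S8 it was -0.34 ± 0.06, all short of the minimum. S8 and T2 were 0.15 apart, with a confidence interval of -0.04 to 0.34, whose spread came from R1, 16-6 and 32 because S8 and T2 have 1 library each. Otx2 kept nearly the same differences on implied fragments, such as -0.32 in S8 and -0.48 in T2.

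Pou3f1, also called Oct6, encodes a POU factor of the epiblast that is later used in myelinating Schwann cells. Its gene lies at chr4:124334889-124337899 on the plus strand in 1 exon. The FPKM was 7.38 and 8.72 in R1, 17.1 and 16.0 in 16-6, 13.8 and 13.5 in 32, 125.5 in S8 and 82.3 in T2. The 2 libraries of S8 and T2 were the highest by a wide margin, and the remaining 6 stayed within 7.38 to 17.1. The line means of S8 and T2 were 15.6-fold and 10.2-fold of R1. On the log2 scale Pou3f1 was higher than R1 by 3.81 ± 0.10 in S8, with a limma adjusted p of 4.92e-05, and by 3.21 ± 0.10 in T2, with a limma adjusted p of 9.88e-05. On implied fragments the differences were 3.09 and 2.65, still past the threshold, and the mean number of fragments was 400.0 in R1 against 3680 in S8 and 2871 in T2. In 16-6 and 32 the differences from R1 were 0.96 ± 0.08 and 0.70 ± 0.08 and were not called. S8 and T2 were 0.60 ± 0.12 apart, with a limma adjusted p of 0.0172, below the fold minimum.

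Zic2 encodes a zinc finger factor that binds enhancers in pluripotent cells and is needed for the forebrain. It lies at chr14:122874606-122879550 on the plus strand, with 2 or 3 exons. Its FPKM was 53.3 and 54.2 in R1, 42.9 and 40.8 in 16-6, 45.2 and 47.5 in 32, 135.6 in S8 and 118.6 in T2. The gene was already well expressed in R1, and 16-6 and 32 lay a little below R1 while S8 and T2 lay far above. Zic2 was higher than R1 by 1.32 ± 0.05 in S8, with a limma adjusted p of 0.000100, and by 1.13 ± 0.05 in T2, with a limma adjusted p of 0.000230. On implied fragments neither passed the minimum of 1, since the differences were 0.81 in S8 and 0.71 in T2. The differences from R1 in 16-6, -0.35 ± 0.04, and in 32, -0.21 ± 0.04, were small, with confidence intervals of -0.47 to -0.24 and -0.32 to -0.09. S8 and T2 did not differ at an adjusted p below 0.05 (0.19 ± 0.06, limma adjusted p of 0.0719).

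Sox3 and Sox4 encode factors of the SOX family. Sox3 belongs to the same subgroup as Sox2 and marks the epiblast and neural progenitors, whereas Sox4 belongs to another subgroup that is used widely in progenitors and mesenchyme. Sox3 lies at chrX:58144541-58146605 on the minus strand in 1 exon, and was the least expressed of the 7 genes in R1, 16-6 and 32. Its FPKM was 2.21 and 2.47 in R1, 5.68 and 5.53 in 16-6, 5.26 and 6.05 in 32, 34.1 in S8 and 29.1 in T2. The libraries fell at 3 levels, with R1 lowest, 16-6 and 32 together above it, and S8 and T2 highest. Sox3 was higher than R1 by 3.39 ± 0.10 in S8, with a limma adjusted p of 6.18e-05, and by 3.17 ± 0.10 in T2, with a limma adjusted p of 9.88e-05. On implied fragments these differences were 2.58 and 2.62, and S8 minus T2 was -0.04 ± 0.11, which sets no order between these lines. In 16-6 and 32 the differences from R1 were 0.99 ± 0.08 in each, just short of the minimum, and 32 passed it on implied fragments at 1.03. The lines 16-6 and 32 differed by 0.01 ± 0.08, with a confidence interval for 16-6 minus 32 of -0.22 to 0.20, and S8 and T2 by 0.22 ± 0.11, with a limma adjusted p of 0.191.

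Sox4, at chr13:29042599-29045551 on the minus strand, overlaps a lincRNA gene on the opposite strand by 942 bases, and the counting is not stated to use strand, so reads of the pair may be mixed. Its FPKM was 15.7 and 17.7 in R1, 26.7 and 24.4 in 16-6, 11.1 and 12.4 in 32, 31.7 in S8 and 34.4 in T2. The line 32 was lowest and lay below R1, while 16-6 lay above R1, and Sox4 was the only one of the 7 genes called between these mesodermal lines. It was higher in 16-6 than in 32 by 1.06 ± 0.09, with a limma adjusted p of 0.000463, whereas on implied fragments the difference was 0.89 and was not called. The summed fibroblast markers also differed between these lines, 2571 to 2587 FPKM in 16-6 against 142 to 143 in 32, and their part in the Sox4 difference was not tested. Against R1 no line passed the minimum, the largest differences being 1.00 ± 0.11 in T2 and 0.89 ± 0.11 in S8. On implied fragments those were 0.42 and 0.18, and the mean number of Sox4 fragments was 1017 in R1, 1138 in S8 and 1448 in T2.

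Foxd3 encodes a forkhead factor that maintains the epiblast and later marks the neural crest. It lies at chr4:99322990-99325362 on the plus strand in 1 exon, within which the annotation also places a miRNA gene on the same strand. Its FPKM was 16.98 and 17.8 in R1, 11.4 and 10.4 in 16-6, 14.4 and 15.9 in 32, 51.6 in S8 and 24.4 in T2. S8 was far above every other line. The difference for 16-6 minus T2, -1.10 ± 0.09, was also past the threshold on FPKM, but not on implied fragments, at -0.78. Both libraries of 32 lay below those of R1, by 0.19 on the log2 scale with a confidence interval for 32 minus R1 of -0.37 to -0.01, but the limma adjusted p was 0.0665. Foxd3 was higher than R1 in S8 by 1.52 ± 0.09, with a limma adjusted p of 0.000168. It was the only one of the 7 genes called higher in S8 than in T2, by 1.05 ± 0.10 with a limma adjusted p of 0.00356. On implied fragments both fell short of the minimum, at 0.88 against R1 and 0.82 against T2, and T2 itself was 0.07 above R1 with a limma adjusted p of 0.516.

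Counted by line against R1, 4 of the 7 genes were higher in S8 (Pou3f1, Zic2, Sox3 and Foxd3) and none was lower, where 6.93% of all genes tested were called higher and 9.74% lower. In T2, 4 were higher (Fgf5, Pou3f1, Zic2 and Sox3) and none was lower, against 3.95% and 6.54% of all genes. In 16-6 only Fgf5 was higher and only Otx2 lower, against 3.58% and 3.53%. In 32 only Fgf5 was higher and none was lower, against 1.54% and 8.23%. The median difference from R1 over the 7 genes was 1.32 in S8, 1.13 in T2, 0.59 in 16-6 and -0.19 in 32, where the median of all genes lay between -0.03 and -0.02. On implied fragments 3 genes were higher in each of S8 (Fgf5, Pou3f1 and Sox3) and T2 (Fgf5, Pou3f1 and Sox3), against 5.95% and 3.98% of all genes, and the medians over the 7 genes were 0.88 and 0.71. These 4 comparisons share the R1 libraries.

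**Figure D3:**
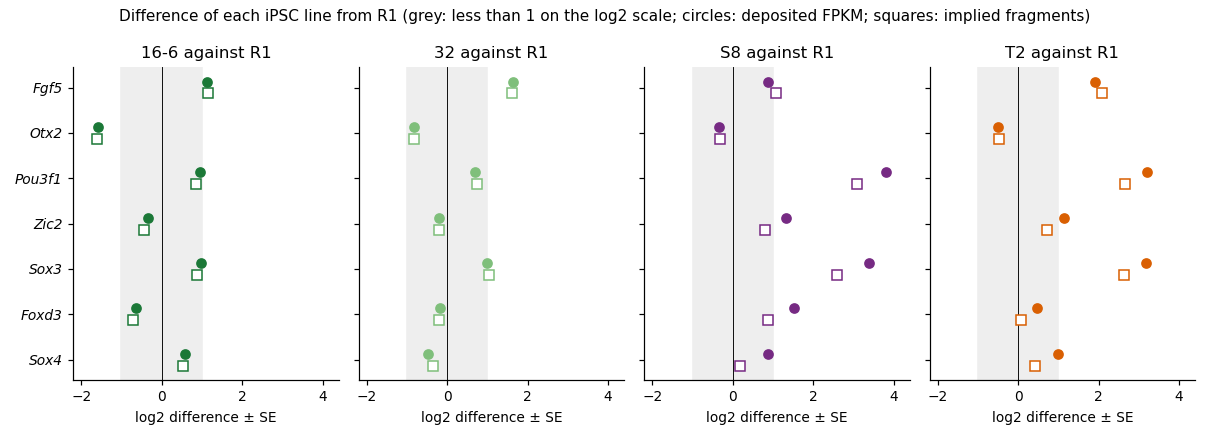
Difference of each iPSC line from R1 on the log2 scale (horizontal axis), for the 7 epiblast genes, from deposited FPKM (circles) and from implied fragments (squares), with standard errors that are mostly narrower than the symbols. The grey band spans differences smaller than 1. Circles and squares nearly coincide in 16-6 and 32, while in S8 the squares of Pou3f1, Zic2, Sox3, Foxd3 and Sox4 lie to the left of the circles, for example at 0.81 against 1.32 for Zic2.

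Between the iPSC lines, most calls set 16-6 or 32 below S8 or T2, although Fgf5 was called in none of these 4 pairs. In 16-6, 5 of the 7 genes were lower than in S8 (Otx2, Pou3f1, Zic2, Sox3 and Foxd3) and none was higher, against 6.9% of all genes lower and 10.4% higher. The same 5 genes were lower in 16-6 than in T2 and none was higher, against 1.68% lower and 6.39% higher. In 32, 5 were lower than in S8 (Pou3f1, Zic2, Sox3, Foxd3 and Sox4) and none was higher, against 7.27% lower and 4.56% higher. Against T2, 4 were lower in 32 (Pou3f1, Zic2, Sox3 and Sox4) and none was higher, against 4.64% lower and 2.79% higher. Between 16-6 and 32 only Sox4 was called, higher in 16-6, where 9.22% of all genes were higher and 1.09% lower. Between S8 and T2, Foxd3 was higher and Fgf5 lower in S8, where 0.92% of all genes were higher and 1.83% lower. Over the 10 pairs of lines 33 of 70 comparisons were called on FPKM and 26 on implied fragments, on which 9 were no longer called and 2 were newly called. The 4 pairs that set 16-6 or 32 against S8 or T2 gave 5, 4, 4 and 2 genes lower on implied fragments, in the order above, against 6.02%, 1.94%, 5.93% and 4.43% of all genes.

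Fgf5 was the gene called between S8 and T2 both on FPKM and on implied fragments. It was 13.2 in S8 and 28.3 in T2, a difference of -1.04 ± 0.09 with a limma adjusted p of 0.00334, and -1.01 on implied fragments. The deposited confidence limits, 11.8 to 14.7 and 26.2 to 30.4, did not touch. With 1 library in each line, the spread in this test came from R1, 16-6 and 32, and each lone library was assumed to vary like those.

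Other genes of the epiblast state were followed in a list of 17, all of which were tested. In S8, 8 of the 17 were higher than in R1 and none was lower, with a median difference of 0.74. Of all genes tested, 6.93% were higher and 9.74% lower there. In T2, 6 were higher and none was lower, with a median of 0.73, against 3.95% and 6.54% of all genes. In 16-6, 3 were higher, and in 32, 2 were higher and none lower, with medians of -0.06 and -0.17. Of all genes, 3.58% were higher in 16-6, and 1.54% were higher and 8.23% lower in 32. Dnmt3b, a DNA methyltransferase that comes on with the formative state, was at 137 and 156 FPKM in R1, 222 and 220 in 16-6, 176 and 179 in 32, 502 in S8 and 490 in T2. It was higher than R1 by 1.77 ± 0.08 in S8, with a limma adjusted p of 0.000122. Its partner Dnmt3a was higher by 1.46 ± 0.11 in S8 and by 1.08 ± 0.11 in T2, where it was not called on implied fragments (limma adjusted p of 0.0745).

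Not all of these genes had the order of Pou3f1 and Sox3. Cldn6, a tight junction gene of early epithelia, was higher than R1 in every iPSC line, with means of 49.7 FPKM in R1, 121 in 16-6, 115 in 32, 159 in S8 and 188 in T2. Wnt8a, a ligand expressed before gastrulation, was called higher in all 4 iPSC lines too, at 0.868 and 0.648 in R1 and 9.05 in T2, but in S8 it was at 0.99 on implied fragments and not called. Tcf15, a helix-loop-helix factor of cells leaving the naive state, and Utf1, a chromatin factor of pluripotent cells, were called higher in S8 alone among the 4 comparisons with R1, at 137 and 1193 FPKM, but Utf1 lost that call on implied fragments, at 0.85. Cdh2, the cadherin of mesenchymal and neural cells, was higher in 16-6 by 1.07 ± 0.06, and was at -0.17 in 32, 0.03 in S8 and 0.54 in T2. The summed fibroblast markers were also highest in 16-6, and their part in the Cdh2 difference was not tested. Sall2 and Sox11 were called higher in both S8 and T2, Sox11 by 1.46 ± 0.05 and 1.77 ± 0.05. Their rise was not particular to these lines. In 32 the differences from R1 were 0.987 for Sall2 and 0.999 for Sox11, and both were called on implied fragments, at 1.02 and 1.03. In 16-6 they were 0.71 and 0.97 and were not called. By the F test on FPKM Lef1, Nodal and Zic5 also differed among the lines, whereas Etv4, Etv5, Grhl2 and Tdgf1 did not pass the span of 1. Lef1 and Nodal fell short of 1 on implied fragments, where their widest differences were -0.71 (32 against R1) and -0.83 (32 against T2). On implied fragments 6 of the 17 were higher than R1 in S8, 5 in T2, 3 in 16-6 and 4 in 32. The shares of all genes called higher were 5.95%, 3.98%, 3.61% and 1.73% in the same order.

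Naive genes ran the other way in S8 and T2. Of 12 naive genes tested, 8 were lower than in R1 in S8 and 8 in T2, 6 were lower in 16-6, and none was higher in these 3 lines. The shares of all genes called lower were 9.74% in S8, 6.54% in T2 and 3.53% in 16-6. The medians were -1.31 in S8, -1.49 in T2 and -1.001 in 16-6. In 16-6 the list of 17 epiblast genes had a median of -0.06, and the 7 genes had one of 0.59. Lower naive genes were thus not confined to the lines in which the median of the 17 epiblast genes was raised. The line 16-6 also had the highest sums of fibroblast markers, and the part of such cells in these medians was not tested. In 32 only Zfp42 was lower and Dppa3 higher, with a median of 0.19, where 8.23% of all genes were lower and 1.54% higher. Tfcp2l1, a factor that holds cells in the naive state, was at 56.3 and 54.6 FPKM in R1, 42.0 and 42.5 in 16-6, 95.8 and 96.4 in 32, 8.21 in S8 and 14.3 in T2. It fell by 2.61 ± 0.04 on the log2 scale in S8, with a limma adjusted p of 1.13e-05. Tbx3 and Nr0b1 were also lower in S8, T2 and 16-6, as were Esrrb, Zfp42 and Tcl1, and Klf5 was lower in S8 and T2. Nanog was lower in S8, at 80.8 FPKM against 177 and 174 in R1, and Klf4 was lower in T2. Prdm14 was lower in 16-6. Klf2 did not pass in any of these comparisons. On implied fragments 8 naive genes were lower in each of S8 and T2 and 6 in 16-6, against 9.25%, 6.78% and 3.58% of all genes. They were not all the same ones as on FPKM. Nanog in S8 and Tbx3 in 16-6 lost their calls, with limma adjusted p of 0.366 and 0.0886, and Klf4 gained one in both lines.

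**Figure D4:**
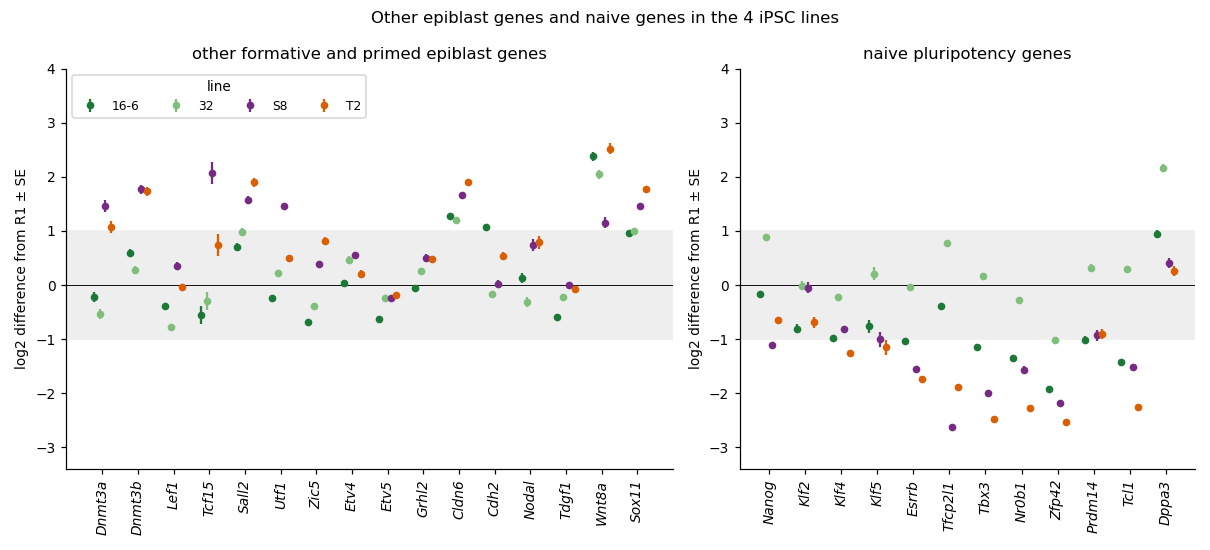
Difference from R1 on the log2 scale with its standard error (vertical axis) for other epiblast genes and 12 naive genes (horizontal axis), in 16-6, 32, S8 and T2 (colours). The grey band spans differences smaller than 1. Points of S8 and T2 lie above the band for 8 and 6 of the epiblast genes, and below it for 8 naive genes in each line, whereas points of 32 leave the band downward only for Zfp42.

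Close relatives of the 7 genes ranged from barely detected to highly expressed. Of 12 paralogs, 5 (Zic4, Otx1, Pou3f2, Pou3f3 and Pou3f4) stayed below 1 FPKM in every library, with Pou3f4 highest at 0.501. By the F test 4 of the 7 tested differed among the lines, beside 34.5% of all genes. Fgf8, a growth factor of the primitive streak, had the same line order as Fgf5 at its ends, with 2.24 and 1.65 FPKM in R1, 20.8 and 22.6 in 16-6, 16.2 and 18.4 in 32, 8.74 in S8 and 28.3 in T2. It was called higher than R1 in all 4 iPSC lines, by 1.73 ± 0.15 in S8 to 3.32 ± 0.15 in T2. Fgf15 was lower in 32 than in R1, by 1.55 ± 0.07. Fgf4, the growth factor made by naive cells, differed among the lines, from 41.8 FPKM in 16-6 to 108 in S8. Sox1, the neural relative of Sox3, was called higher in S8 than in R1 but reached only 2.03 FPKM, and on implied fragments it was not called, at 0.96. Fgf15 was called higher in S8 on that scale, at 1.32, and Fgf8 stayed called in all 4 lines. Sox2, the pluripotency factor of the same subgroup, did not pass the span of 1 among the lines.

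Of 8 receptors and feedback genes of the growth factor pathway tested, only Fgfr1 and Spry4 passed the F test, which 34.5% of all genes passed. Spry4, an inhibitor induced by ERK signalling, was called lower than R1 in S8, by 1.49 ± 0.05, and in T2, by 1.06 ± 0.05. Its difference from R1 was -0.94 in 32, just short of the minimum, and -0.12 in 16-6. Fgfr1, the main receptor of ESCs, was higher in 16-6 than in 32, with means of 48.8 and 22.2 FPKM, a call lost on implied fragments, at 0.88. Spry4 stayed called in S8 and T2 on that scale. Spry2, Dusp6, Egr1, Fgfr2, Fgfr3 and Fgfr4 were not called.

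Markers of cell types in which some of the 7 genes are also used were checked. Of 10 neural progenitor markers, 3 to 5 reached 1 FPKM in each library. Their sum ran from 41.2 in T2 to 72.4 in 32, and Tubb3, which many cells express, gave most of it. Sox1 and Neurog2 had at most 2.03 and 0.188 FPKM. Neural crest markers summed to 5.30 FPKM in S8 and 7.08 in T2, the lines with most Foxd3, to 3.61 and 4.06 in 32, to 18.4 and 19.0 in R1 and to 28.1 and 31.0 in 16-6. These and the other marker sums are FPKM. Of the 5 neural crest markers 3 were tested, and for 16-6 minus 32 the log2 difference was 3.27 in Snai2, 1.98 in Ets1 and -0.05 in Tfap2a. The fibroblast sum was likewise highest in 16-6 and lowest in 32, and what this sum says about neural crest cells was not tested. Primitive streak markers summed to 40.7 and 40.6 FPKM in 32, 26.5 and 26.6 in 16-6, 13.01 in T2, 7.63 and 7.33 in R1 and 6.60 in S8. Among them T, the brachyury gene, was higher than R1 by 2.64 ± 0.08 in 32 and by 2.05 ± 0.08 in 16-6, and was at 0.578 FPKM in S8. The 8 primitive endoderm markers summed to 28.1 FPKM in S8, 42.8 in T2, 28.3 to 29.0 in 32, 47.0 to 49.5 in R1 and 93.2 to 93.3 in 16-6. The part of such cells in the values of the 7 genes was not tested.

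For each of the 7 genes, the 2 genes with the most similar profile were taken from 5767 genes whose values spanned at least 1, by Pearson's r of log2(FPKM + 1) over the 8 libraries. These r values are descriptions without a test, since they rest on 5 lines, share depth and library preparation, and are the highest of many. Tdrd5 and Magel2 were nearest to Fgf5 (r = 0.997 and 0.987), Rad51c and Atp1b2 to Otx2 (r = 0.993 and 0.990), and Herpud1 and Lmtk3 to Pou3f1 (r = 0.999 and 0.997). Dus2l and Gart were nearest to Zic2 (r = 0.989 and 0.988), Cdh24 and Bspry to Sox3 (r = 0.998 and 0.997), Gpsm3 and Fbxo31 to Foxd3 (r = 0.995 and 0.995), and Tspan5 and Rnft1 to Sox4 (r = 0.991 and 0.991). Within the 7 genes, Pou3f1 and Sox3 were the most alike (r = 0.99), and Fgf5 and Otx2 were the least alike (r = -0.50).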

How the data were processed

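RNA-seq values of 8 libraries from 5 mouse lines were used, grouped by the line named in the labels. The authors aligned paired reads to the mouse genome (mm9) using TopHat 2.0.4, discarded alignments that were not unique, and deposited FPKM with confidence limits from Cufflinks. The submitters' processing notes name Cufflinks 2.0.0 and the paper's methods a later release, and the options are not given in the sources used here. The deposited FPKM summed to 11440835276 to 16028305074 per library, so every value was divided by 12725.7, which set the median total to 1000000. The files count starts from 0, and coordinates are printed from 1.

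Fragments were obtained by dividing 2 × FPKM by the distance from FPKM to the upper limit and squaring the quotient, and 80.9% to 82.3% of values under 50 were whole within 0.01. Read numbers are given in the study's supplement and were not used here. For the implied fragment scale, the FPKM per fragment of a gene was set to its median over libraries, times the median ratio of the library. The 13693 genes that reached an FPKM of 1 anywhere were fitted as log2(FPKM + 1), which understates changes of low genes, with limma 3.58.1 in R 4.3.3 (lmFit, eBayes with a trend), all 8 libraries entering with 3 residual degrees of freedom. An exact test of 2 against 2 libraries cannot go below p = 0.333. A call needed a Benjamini-Hochberg adjusted p below 0.05 and a log2 difference of at least 1, and intervals are 95% intervals. The fit was tested on simulated data. GC content was that of each gene's longest coding transcript in GENCODE on the same build, found for 97.9% of the entries with at least 20 fragments, and promoter windows from RefSeq on GRCm38.p6. Other steps used Python 3.11.15 with pandas 2.3.3, numpy 2.4.6 and matplotlib 3.10.9.

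The members, lists and alternatives were chosen with earlier results of these data known. Named genes are the 7 members, the genes of each list that passed a call or, for none, its highest, and the 2 genes most like each member. Genes outside this rule were named after their values were seen, and 1 gene of the list of 17 epiblast genes is not reported here. In 2 cases the files use an older symbol (Tfcp2l1, Tfap2a). Deviations of same-numbered libraries correlated by -0.10 (R1 and 16-6), 0.00 (R1 and 32) and 0.03 (16-6 and 32), so the numbers were not taken to pair libraries. Alternatives were another pseudocount, other filters and scalings, eBayes without a trend, no fold minimum, leaving out each replicate, a replicate block and, chosen after the data were seen, implied fragments and a fit without S8 and T2.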

Additional observations from a re-analysis of the deposited data

Results flagged for a closer look

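Some genes differed from R1 in opposite directions in different iPSC lines, at a limma adjusted p below 0.05 each, with the difference between those lines past the threshold. Zic2 lay below R1 in 16-6 and 32 and above it in S8 and T2. Its log2 difference was -1.67 for 16-6 against S8, -1.48 for 16-6 against T2, -1.53 for 32 against S8 and -1.34 for 32 against T2. Foxd3 lay below R1 in 16-6 and above it in S8 and T2, with differences of -2.15 for 16-6 against S8 and -1.10 for 16-6 against T2. Sox4 lay below R1 in 32 and above it in the other iPSC lines, with a difference of 1.06 for 16-6 against 32, -1.36 for 32 against S8 and -1.48 for 32 against T2.

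On implied fragments, a scale chosen after the data were seen, Zic2 was at -1.26, -1.16, -1.02 and -0.92 in the order above, and Foxd3 at -1.59 and -0.78. Sox4 was at 0.89, -0.54 and -0.79, all short of the threshold. Foxd3 in T2 and Sox4 in S8 then no longer differed from R1, with limma adjusted p of 0.516 and 0.123.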

How the results depend on the processing

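The count of 7 genes differing among the lines was 6 on implied fragments and 3 without S8 and T2. It stayed at 7 in the other alternatives that kept S8 and T2 in the fit. Against R1, 16-6 went from 2 called genes to 4 with a pseudocount of 0.1 or quantile normalization, and 32 from 1 to 2 with that pseudocount, quantile normalization or equal library totals, and to 2 on implied fragments. Without the minimum on the difference, 7 genes passed in 16-6, S8 and T2 against R1 and in 32 against T2, and 6 in 32 against R1 and in 16-6 against 32. Between 16-6 and 32 the count of 1 became 0 with quantile normalization or implied fragments. Between S8 and T2 the count of 2 became 1 with equal totals, quantile normalization or implied fragments, and for 32 against T2 it was 2 on implied fragments. With 1 replicate left out, the counts were 2 to 4 for 16-6 against R1 (4 without R1 replicate 2 or 16-6 replicate 2), 1 to 2 for 32 against R1 (2 without R1 replicate 2 or 32 replicate 1) and 0 to 1 for 16-6 against 32 (0 without 32 replicate 1). Equal totals moved the median of all genes by up to -0.43 (32 against T2). The replicate block, fitted to the 6 replicated libraries, changed none of 21 member comparisons. Of 1022 member comparisons over all alternatives, 958 kept direction and side of the threshold, 51 became called, 13 lost the call, and none changed sign past the threshold. S8 and T2 have 1 library each, which limits every statement about those lines.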
